A study of Drosophila melanogaster with 12 samples.

Results

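The genes described here are 6 regulators of germline stem cells and spermatogonia in the testis of Drosophila melanogaster: mei-P26, tut, pum, A2bp1, how and Stat92E. They were taken by symbol from 4 deposited tables of 3′ extensions, which together list 1457 genes. The 6 genes fill 12 entries of these tables. In the SG table mei-P26 and tut were listed, and in the SG-tut table pum alone. The SG-bam table lists mei-P26, pum, A2bp1 and how, and the SG-bgcn table lists these 4 and Stat92E. In every one of the 12 entries the extension was more abundant in the mitotic group than in meiotic cells, and its share of the gene level was higher.

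The study sequenced RNA of mitotic and meiotic male germ cells. Wild-type testes were dissected by laser into meiotic cells (SC, 3 libraries) and mitotic cells (SG, 3 libraries). The groups SG-tut, SG-bam and SG-bgcn, with 2 libraries each, are mutant testes that hold mainly mitotic germ cells. Their alleles are tut3 in SG-tut, bamBG over bamΔ86 in SG-bam, and bgcn20093 over bgcnQS2 in SG-bgcn. The labels used here state no age of the flies. The mutant testes were not dissected by laser, so they keep whatever somatic cells a testis has, and their libraries were made with a kit other than that of SG and SC. Between a mutant group and SC the genotype, the tissue taken and the kit cannot be told apart. SG and SC share the dissection and the kit.

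Germline stem cells sit around a cluster of somatic hub cells, and their daughters divide as spermatogonia before they turn into spermatocytes. Signals from the hub act through Stat92E, the transcription factor of the JAK-STAT pathway. Bam, Bgcn and Tut act together to end the spermatogonial divisions, and they repress mei-P26 mRNA through its 3′ UTR. Pum is a translational repressor that keeps stem cells from differentiating, and in the ovary the RNA-binding protein A2bp1 (also named Rbfox1) promotes differentiation and represses pum. How is an RNA-binding protein of the STAR family that acts in stem cells and early spermatogonia. Most of these proteins work by binding mRNA, often in the 3′ UTR.

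An extension is a stretch of signal past a nearer 3′ end of the same gene. For each gene the tables give an average level of the extension and of the gene in each group. The extension share is the first as a percentage of the second, and the deposited share stops at 100%. The tables hold group averages only, so no value below has a replicate error, and depth per library is unknown. In bulk RNA such as this, fewer cells of a type and less RNA per cell cannot be told apart. The tables hold selected genes: every listed extension differed more than 2-fold between the groups, and its share moved the same way. The FDR is the authors' own, and the labels do not say which quantity it tests. The extension level proved to be scaled per base. Among 1225 pairs of entries in which a gene's extension differed in length between tables, the SC level times the length was equal to within 1e-06 in 459, and the SC level itself was equal in 0. Extension levels can therefore be compared between genes. The unit of the gene level is not named, and gene levels are compared only within a gene.

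All 12 entries passed an FDR of 0.05, with the higher share in the mitotic group. They are 2 of the 6 genes in SG, 1 in SG-tut, 4 in SG-bam and 5 in SG-bgcn. Over all tests such entries made up 11.4% in SG, 8.08% in SG-tut, 7.64% in SG-bam and 7.85% in SG-bgcn. The genes were chosen because the tables list them, so nothing is read from their count against these percentages. With a share at least 2-fold higher, 9 of the 12 entries were left, those of how and Stat92E falling out. Among all entries called with the higher share in the mitotic group, 617 of 665 were left in SG and 385 of 451 in SG-tut. In SG-bam 405 of 469 were left, and in SG-bgcn 372 of 439. These are 10.6%, 6.9%, 6.59% and 6.65% of all tests in the same order.

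Where the extensions lie differed between the genes. All positions are on dm6. The extension of mei-P26, on the plus strand of chromosome X, began at 9172930, which is 1270 bases past the nearest annotated 3′ end at 9171659. It ran to 9175379 in SG, to 9176019 in SG-bam and to 9175969 in SG-bgcn. These ends lie 189, 829 and 779 bases past the annotated end at 9175190, and the longest annotated form goes on to 9189309. The extension of pum, on the minus strand of 3R, began at 9069336, 420 bases past the annotated end at 9069757. It ran to 9067307 in SG-tut, 9067047 in SG-bam and 9067577 in SG-bgcn. The last of these lies 1 base past the annotated end at 9067578. In mei-P26 and pum, and so in 6 of the 12 entries, the whole extension lies in the annotated 3′ UTR of the long forms.

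In A2bp1, on the plus strand of 3L, the extension ran from 10591666 to 10594135 in SG-bam and to 10594055 in SG-bgcn. Of its bases 2347 are annotated 3′ UTR, and the last 123 and 43 bases lie beyond 10594012, where the annotated gene stops. The extension of how, on the plus strand of 3R, began at 22072371, the base after an annotated 3′ end of a short form, and ran to 22076810 in SG-bam and 22076790 in SG-bgcn. It crosses the last exon of the form that ends at 22073682 and an inner exon of longer forms. It stops before the last exons of the forms that end at 22078463 and 22079321. In SG-bam 1102 of its 4440 bases are annotated 3′ UTR and 139 are coding in some form. A further 3193 (71.9%) are annotated only as intron. For how the extension signal is thus a mean over exons and introns of the longer forms.

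The extensions of tut and Stat92E touch no annotated exon. That of tut spans 8208827 to 8209326 on the minus strand of 3L, wholly beyond 8209577, where the annotated gene stops, and 5481 bases short of the next gene, CG13679. That of Stat92E spans 20537856 to 20538055 on the minus strand of 3R. It lies in an annotated intron, 80 bases past the 3′ end of a short form at 20538136, and its 200 bases are the shortest length in the SG-bgcn table, shared by 12 of 618 entries. None of the 12 extensions touches an exon of another gene, on either strand (0 of 12).

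**Figure D1:**
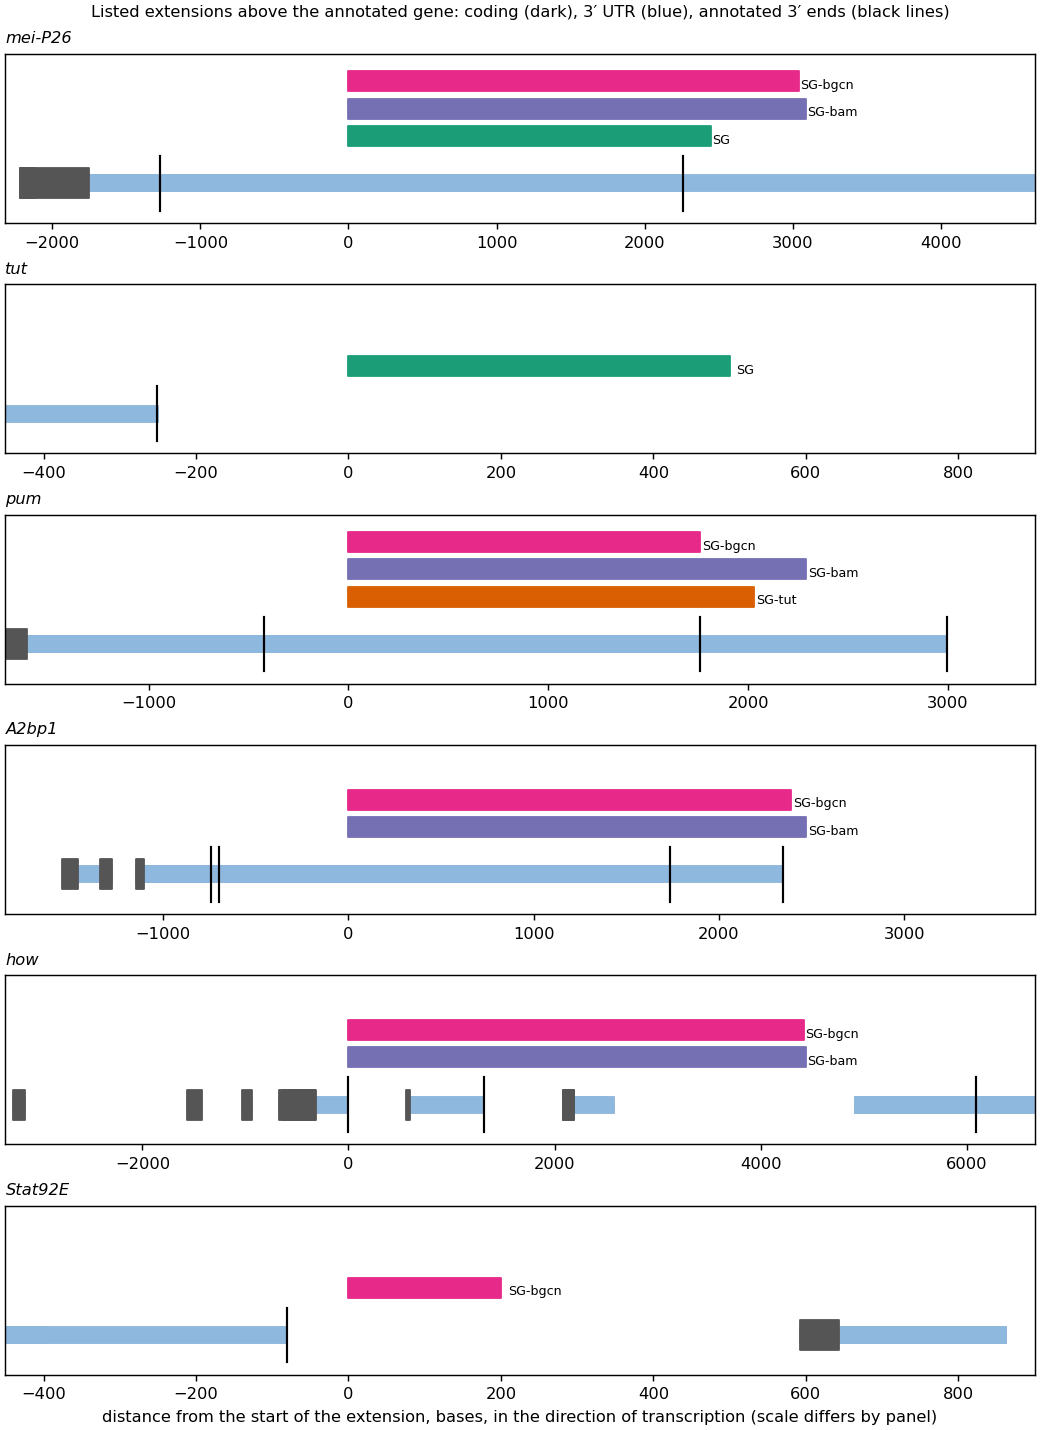
Listed extensions (coloured bars, named by table) above the annotated gene, with distance from the start of the extension in bases on the x axis and a scale of its own in each panel; dark blocks are coding, blue blocks 3′ UTR and black lines annotated 3′ ends. The extensions of mei-P26 and pum lie inside the long 3′ UTR, that of how crosses exons and introns, and those of tut and Stat92E lie outside every annotated exon; the most distal annotated ends of mei-P26, how and Stat92E are outside the plotted window.

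Most of the extensions were long. Their lengths ran from 200 to 4440 bases with a median of 2420, and 10 of the 12 were longer than the median of their table, which was 575 bases in SG, 546 in SG-tut, 620 in SG-bam and 541.5 in SG-bgcn. That of how was longer than 95.3% of the extensions listed for SG-bam. That of mei-P26 was longer than 92.5% of those listed for SG, and that of tut, with 500 bases, longer than 43.3%.

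mei-P26 encodes a TRIM-NHL protein that limits growth and division of germ cells and is repressed by Bam, Bgcn and Tut. It had the largest extension fold of the 12 entries. In the authors' deposited tables its extension level was 0.241 in SC and 12.4 in SG, a log2 fold of 5.68 (FDR 2.6e-31). In SG-bam the extension level was 8.44 against 0.196 in SC over the longer window (log2 fold 5.43, FDR 1.74e-07), and in SG-bgcn 5.88 against 0.199 (log2 fold 4.88, FDR 0.000318). The extension of mei-P26 was thus low in SC in each table and highest in dissected SG.

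The gene level of mei-P26 differed far less, and not in the same direction in all groups. The authors' deposited tables give 25.64 in SC, 11.38 in SG, 40.42 in SG-bam and 30.36 in SG-bgcn. From lowest to highest the order is SG, SC, SG-bgcn and SG-bam, and without library values it cannot be said which neighbours differ. The extension share was 0.942% in SC and 100% in SG, 0.764% and 20.9% in the SG-bam table, and 0.776% and 19.4% in the SG-bgcn table. In SG the extension level was above the gene level (109% of it before the limit), so the SG share is set by that limit.

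The mei-P26 windows differ in length, and the mutant levels are means over more bases than the SG level. If all of the mutant signal lay in the first 2450 bases, the extension level there would be at most 10.6 in SG-bam and 7.29 in SG-bgcn, against 12.4 in SG. SG therefore has the highest level of these groups whichever window is used. The difference between SG and the mutants was not tested, since no library values are used here and the kits differ.

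tut, which encodes the RNA-binding partner of Bam and Bgcn, had the weakest extension signal. The authors' deposited table gives an extension level of 0.151 in SC and 0.378 in SG (log2 fold 1.33, FDR 0.00158). Its gene level was 87.25 in SC and 44.16 in SG, lower in SG by 1.98-fold. The share therefore differed more than the extension itself, with 0.173% in SC and 0.856% in SG. tut has no entry for SG-tut, so the tut3 allele could not be checked at its own gene, and neither bam nor bgcn has an entry.

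**Figure D2:**
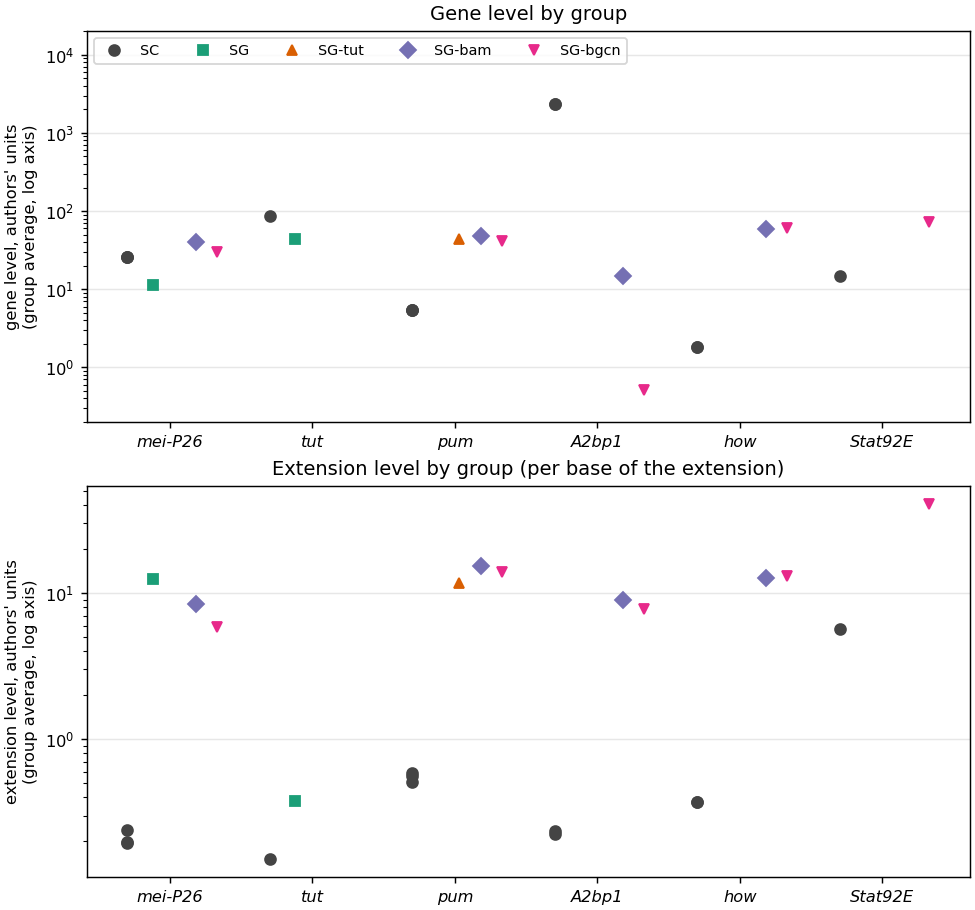
Gene level (upper panel) and extension level (lower panel, per base of the extension) in the authors' units on log axes, for each gene and group; each point is 1 group average, and SC has a point for each table that lists the gene. Extension levels in SC lie between 0.151 and 5.65 and those of the mitotic groups between 0.378 and 40.7, while the gene levels of mei-P26, tut and A2bp1 are not uniformly higher in the mitotic groups.

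pum was listed for the 3 mutant groups and not for SG. In the authors' deposited tables its extension level was 11.7 in SG-tut (SC 0.56), 15.4 in SG-bam (SC 0.511) and 14 in SG-bgcn (SC 0.583). The log2 folds were 4.38 (FDR 0.00635), 4.91 (FDR 2.7e-06) and 4.58 (FDR 0.00226). The gene level of pum was also higher, with 5.47 in SC against 43.25 in SG-tut, 48.65 in SG-bam and 41.6 in SG-bgcn. The extension made up 10.2% of the SC level and 27% of the SG-tut level. The shares were 9.34% and 31.7% in the SG-bam table, and 10.7% and 33.6% in the SG-bgcn table. In pum both the gene and its long 3′ UTR were thus higher in each mutant, the extension by more. Between the 3 mutants the gene levels were within 1.17-fold and the extension levels, each over its own window, within 1.32-fold of each other. The windows measure 2030 bases in SG-tut, 2290 in SG-bam and 1760 in SG-bgcn. If all of the signal lay in the first 1760 bases, the extension level there would be at most 13.5 in SG-tut and 20.0 in SG-bam, against 14 in SG-bgcn, so the order of the mutants is not settled.

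A2bp1 showed the largest difference in share and the least settled gene level. Its extension level was 0.226 in SC and 8.98 in SG-bam (log2 fold 5.31, FDR 3.44e-08), and 0.234 in SC and 7.74 in SG-bgcn (log2 fold 5.05, FDR 3.53e-06), in the authors' deposited tables. Its gene level was 2320.35 in SC, 14.57 in SG-bam and 0.51 in SG-bgcn, log2 folds of -7.32 and -12.15. The share was 0.00975% in SC and 61.6% in SG-bam, and 0.0101% and 100% in the SG-bgcn table. Before the limit, the extension level in SG-bgcn was 1520% of the gene level.

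Between SG-bam and SG-bgcn the gene level of A2bp1 differed 28.6-fold and its extension level 1.16-fold. For mei-P26, pum and how the gene levels of the same groups differed by 1.33-fold, 1.17-fold and 1.01-fold. Inside the A2bp1 locus the annotation places S-Lap4, a gene of the sperm leucyl-aminopeptidase family, at 10490861 to 10492934 on the same strand, a snoRNA on the same strand, and CG6527 on the opposite strand. None of these is listed in the tables (0 of 3), and the strand setting of the counting is not given. Whether reads of nested genes enter the gene level of A2bp1 was not tested, so its gene level and share are uncertain. The extension of A2bp1 lies far from these genes and touches none of them. Inside the pum locus the annotation places CG11997 and lncRNA:CR45196 on the opposite strand, and inside that of Stat92E a transposable element on the same strand. Whether their reads enter the gene levels of pum and Stat92E was not tested either.

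how, whose alternative last exons give proteins with different ends, was listed for SG-bam and SG-bgcn. The authors' deposited tables give an extension level of 0.371 in SC and 12.7 in SG-bam (log2 fold 5.09, FDR 3.16e-17), and of 0.373 in SC and 13.1 in SG-bgcn (log2 fold 5.13, FDR 2.95e-21). The gene level was higher by nearly the same factor, with 1.81 in SC, 59.52 in SG-bam and 60.32 in SG-bgcn (log2 folds 5.04 and 5.06). The share was 20.5% and 21.3% in the SG-bam table and 20.6% and 21.6% in the SG-bgcn table. The entries of how thus show more of the whole gene in the mutant testes and nearly the same share of extension.

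Stat92E was listed for SG-bgcn only. In the authors' deposited table its extension level was 5.65 in SC and 40.7 in SG-bgcn (log2 fold 2.85, FDR 4.36e-07), the highest extension level of the 12 entries in both groups. The gene level was 14.89 in SC and 72.57 in SG-bgcn, and the share 37.9% and 56%. As with how, most of the difference in the extension was shared by the gene, and the shares differed 1.48-fold.

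**Figure D3:**
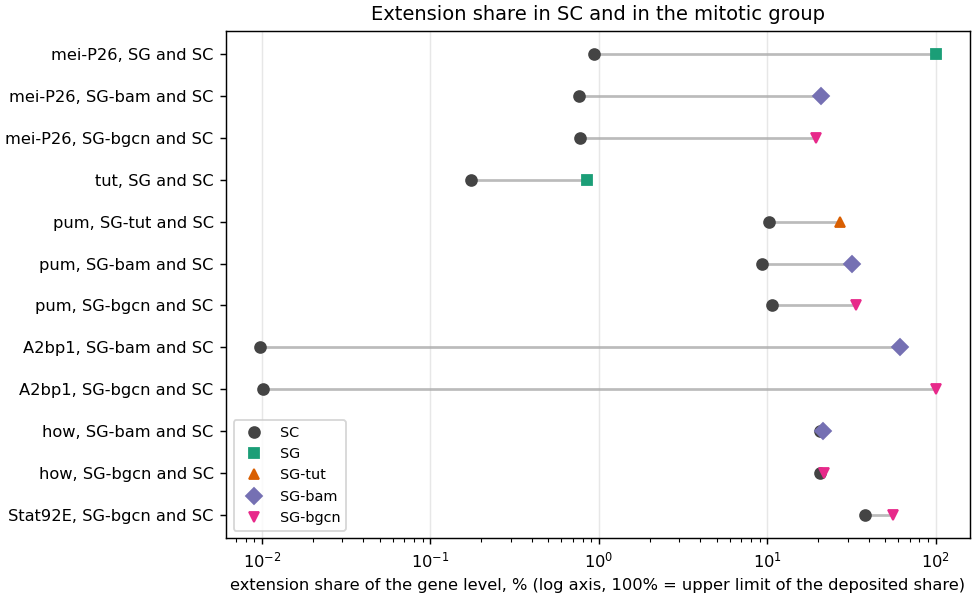
Extension share of the gene level in percent on a log axis for the 12 entries, with SC as circles and the mitotic group of that table as coloured symbols. The shares of mei-P26 and A2bp1 lie farthest apart between the groups, those of how nearly coincide, and 2 entries reach the limit of 100%.

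The extension folds were of similar size in most entries, while the gene level differed widely. Over the 12 entries the log2 fold of the extension ran from 1.33 to 5.68 with a median of 4.98, and that of the gene from -12.15 to 5.06. The gene level was higher in the mitotic group in 8 entries and lower in 4, which are mei-P26 and tut in SG and A2bp1 in both mutants. In 9 of the 12 entries the log2 fold of the share equals the fold of the extension minus that of the gene to within 0.02. The exceptions are mei-P26 in SG, capped at 100%, and A2bp1, where the cap in SG-bgcn or the constant of 1e-05 that the authors add to each share has weight. Among all genes listed in the same table, the extension folds lie above between 11.7% (tut) and 82.2% (mei-P26 in SG) of the entries. The share folds of A2bp1 lie above 99.1% and 98.9% of the listed genes, and its gene folds above only 7.37% and 6.8%.

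**Figure D4:**
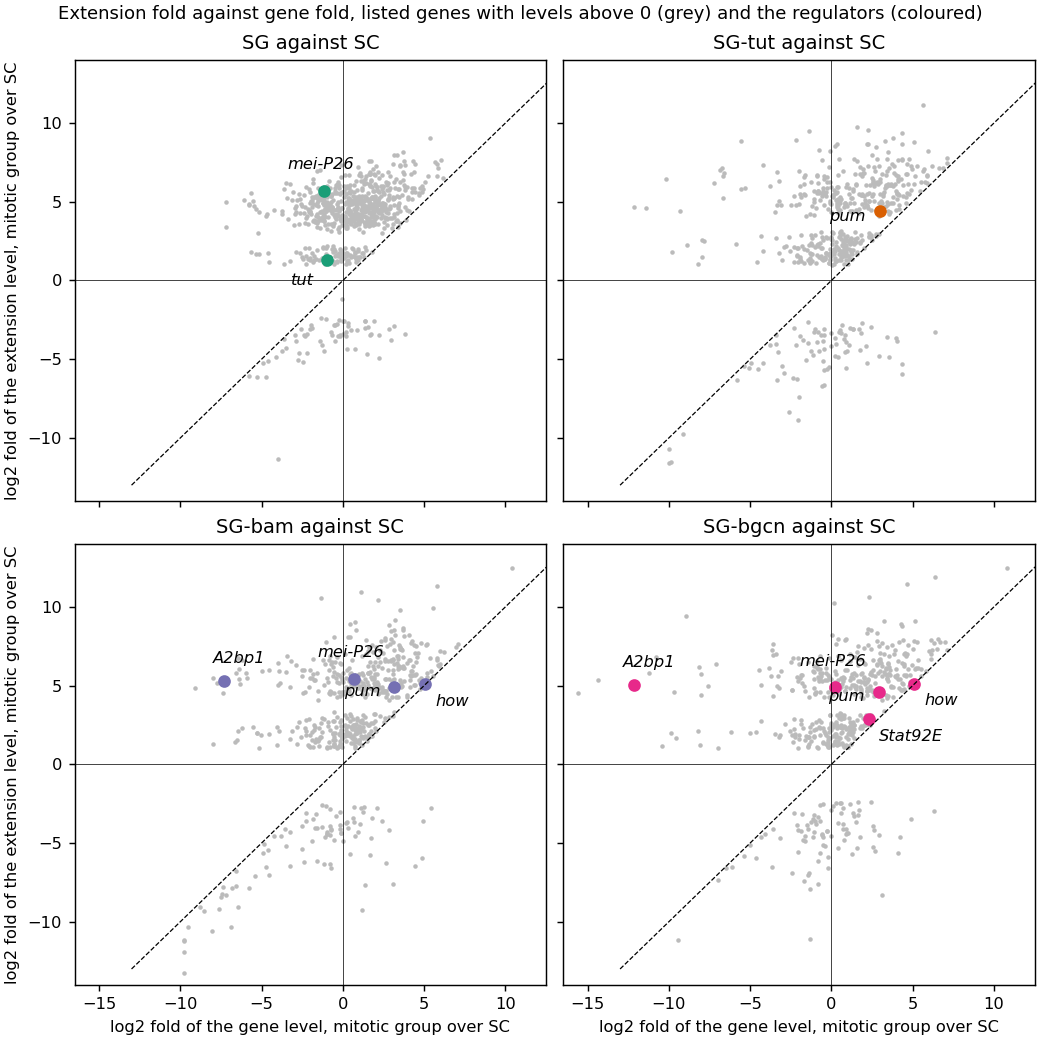
Log2 fold of the extension level against log2 fold of the gene level, mitotic group over SC, for the listed genes with all levels above 0 (746 in SG, 542 in SG-tut, 571 in SG-bam and 542 in SG-bgcn, grey) and the regulators (coloured); on the dashed line both folds are equal and the share is the same. how lies on that line, pum and Stat92E above it, and A2bp1 far to the left.

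Because 4 of the genes were listed with windows of different length, the SC signal could be followed outward along their 3′ ends. In mei-P26 the SC level was 0.241 per base in the first 2450 bases. It was 0.023 in the next 590, 10.5-fold lower, and 0 in the last 50. In pum the SC level was 0.583 in the first 1760 bases, up to the annotated end at 9067578. It was 0.412 in the next 270 bases and 0.126 in the last 260, which is 4.62-fold below the first stretch. In A2bp1 and how the outermost 80 and 20 bases held no SC signal. These steps are differences of the authors' averages and have no error. The same could not be done for the mitotic groups, each of which has 1 window per gene.

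**Figure D5:**
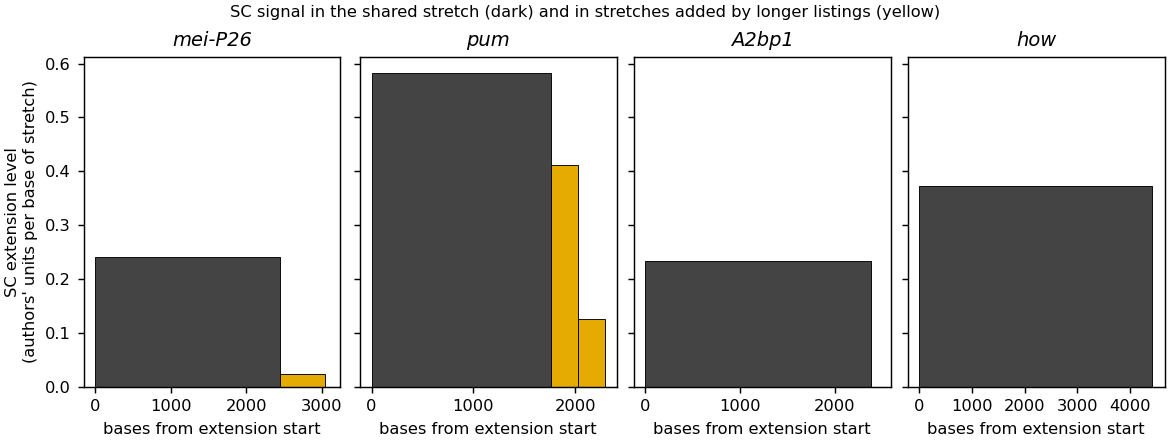
SC extension level per base (y axis, authors' units) along the extension from its start (x axis, bases) for the 4 genes listed with windows of different length; dark bars are the stretch common to all windows and yellow bars the stretches that longer windows add. The SC level is 0.241 and then 0.023 in mei-P26, and 0.583, 0.412 and 0.126 in pum; added stretches with no SC signal have no visible bar.

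Other genes were counted from a list of 80 names. It covers partners of these proteins, the JAK-STAT, BMP, EGFR and Notch pathways, germline RNA regulators and cell cycle genes. It also holds chromatin genes such as Set1, adhesion genes such as CadN, and Lsd-2, so it is wider than these pathways. Of the 80 names, 15 were listed in at least 1 table. In SG 13 were listed, and all 13 were called with the higher share in SG, as were 665 of all 751 listed genes (median log2 fold of the share 4.05, against 3.29 over all listed genes). In SG-tut it was 7 of 7, beside 451 of all 627 listed genes (4.28 against 2.01). In SG-bam it was 6 of 7, beside 469 of 638 (2.5 against 2.25), and in SG-bgcn 7 of 7, beside 439 of 618 (3.65 against 2.17). Of all tests, 11.4% in SG, 8.08% in SG-tut, 7.64% in SG-bam and 7.85% in SG-bgcn were called with the higher mitotic share. How many of the 80 names were tested is not known. The list was chosen with earlier results of these data known, so nothing is read from its counts or medians. None of the genes on this list was called with the higher share in SC (0 in each table). Among all listed genes, those so called number 59 in SG, 158 in SG-tut, 141 in SG-bam and 145 in SG-bgcn.

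Several of these are RNA regulators listed for SG and not for the mutants. brat, another TRIM-NHL gene, had extension levels of 0.367 and 13.2 in SC and SG in the authors' deposited table (FDR 1.82e-28). AGO1, the Argonaute protein of the microRNA pathway, had an extension level of 1.48 in SC and 55.8 in SG (FDR 6.74e-25), and Sxl, a binder of uridine-rich RNA, 0.145 and 5.17. The shares of brat, AGO1, zfh1 and CadN in SG stood at the limit of 100%, as did those of 15.3% of all genes listed for SG, mei-P26 among them.

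orb, which encodes a CPEB translational regulator, and Imp, which encodes an RNA-binding protein that acts in hub cells, had lower gene levels and higher extensions in every mitotic group that lists them. In the authors' deposited table for SG the gene level of orb was 378.72 in SC and 45.21 in SG, and its extension level 0.207 and 10.1. Its extension level was 4.18 in SG-tut and 4.07 in SG-bgcn. The extension of Imp stood at 1.36 in SC and 51 in SG, with 27.6 in SG-tut, 34 in SG-bam and 34.5 in SG-bgcn. For Mad, the transcription factor of BMP signalling, the extension level was 0.205 in SC and 4.75 in SG, and 0.224 and 1.22 in the SG-bam table. N, the Notch receptor, had a gene level of 0.51 in SC, 12.2 in SG-tut, 13.85 in SG-bam and 11.21 in SG-bgcn in the authors' deposited tables. Its shares were 28.9% and 36.2% in the SG-tut table, 30.7% and 31.5% in the SG-bam table, and 32.1% and 41% in the SG-bgcn table.

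Genes with shares most like those of each regulator were sought by the mean absolute difference of log2 share over the groups of the tables that list it. For mei-P26, over 6 values, they were kirre (difference 0.37), CG33181 (0.4) and Imp (0.47). The SG shares of mei-P26, kirre and CG33181 all stand at the limit of 100%, so they match there through the limit. For pum, over 6 values, they were rpk (0.21), rudhira (0.23) and tyf (0.27). For A2bp1, over 4 values, they were exu (0.07), Ndae1 (0.33) and CG12708 (0.7), the last with an extension listed at 0 in SC. In SG-bgcn the shares of A2bp1 and of these 3 genes all stand at the limit of 100%, so they match there through the limit. Like A2bp1, exu had a high gene level in SC, 1477.6, and low ones of 17.86 in SG-bam and 5.2 in SG-bgcn, in the authors' deposited tables. For how, over 4 values, they were Tdrd3 (0.2), Asap (0.22) and Fas1 (0.28). All comparisons use the same SC libraries, so these likenesses are descriptions.

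Markers of other cells were listed too sparsely to check the groups. Of 5 germ cell markers 0 were listed. Of 10 hub and cyst cell markers 3 were listed in SG, 0 in SG-tut, 1 in SG-bam and 2 in SG-bgcn. Their gene levels did not move together. That of dally was 138.77 in SC, 5.13 in SG and 0.15 in SG-bgcn. That of zfh1 was 2.7 in SC, 11.26 in SG, 9.99 in SG-bam and 8.98 in SG-bgcn. That of CadN, listed for SG only, was 2.34 in SC and 3.21 in SG. Of 9 muscle markers Tm1 was listed in every table, with a gene level of 18.18 in SC, 97.18 in SG, 166.96 in SG-tut, 157.86 in SG-bam and 212.92 in SG-bgcn, and Tm2 was added in SG-bgcn. Of 18 spermatocyte and spermatid markers 3, 4, 2 and 3 were listed in SG, SG-tut, SG-bam and SG-bgcn. Each had a lower gene level in the mitotic group, as with aly at 72.72 in SC and 14.12 in SG. Of 4 accessory gland markers Acp95EF was listed in the 3 mutant tables, with a gene level of 349.28 in SC, 3979.91 in SG-tut, 673.08 in SG-bam and 2120.41 in SG-bgcn, and 0 were listed in SG. Of 3 fat body and blood markers Cg25C was listed for SG, its gene level being 0.56 in meiotic SC and 7.94 in SG, and 0 were listed in the mutant tables. Tm1 and Acp95EF thus had higher gene levels in each mutant group than in SC, and zfh1 in SG-bam and SG-bgcn. dally went the other way in SG-bgcn, and Tm1 was also higher in dissected SG. pum, how and Stat92E had higher gene levels in the mutant groups that list them. No listed marker had a gene level of 0. pum, how and Stat92E are also used by somatic cells, and the part of somatic cells, or of other tissue, in their higher levels in mutant testes was not tested.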

How the data were processed

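RNA was sequenced in 12 libraries of 5 groups. The submitters' processing notes name build dm6, TopHat2 2.1.0 and DESeq2, then Cuffdiff 2.2.1 and Cufflinks 2.2.1, with Trimmomatic 0.33, CASAVA and FastQC 0.11.3. The role of each, the strand setting and the way extensions were defined are not stated there. As the labels name no separate flies, the authors' p-values may reflect technical spread alone. Per the file headers, the 4 deposited tables hold the authors' P and FDR (p-values), shares as a fraction (percentages here), log2 folds and average levels per group, a signal whose unit is not named. In all entries the share equals extension plus 1e-05 over gene plus 1e-05, at most 1.

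From these, positions were set against Ensembl release 115 (BDGP6.54, dm6 coordinates), windows were compared between tables, and the number of tests (5813, 5580, 6142 and 5592 for SG, SG-tut, SG-bam and SG-bgcn) was recovered from P over FDR, a step tested on simulated data. Python 3.11.15 and pandas 2.3.3 were used. No test of single genes was run. Genes named are the 6 regulators, their 3 nearest genes where listed in at least 2 tables, and listed genes of the fixed lists, of which those not described are given as counts. The genes and lists were chosen with earlier results of these data known. A planned motif search was not run, as no genome sequence was used here.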

Additional observations from a re-analysis of the deposited data

How the results depend on the processing

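The direction of all 12 entries was the same by the extension level as by the share. That holds for every listed entry, 751 of 751 in SG for example, so this agreement is no check of these genes. Counts of called genes stayed within 1.5-fold at an FDR of 0.01 and with a gene level of at least 1 in both groups. Asking for a share changed at least 2-fold left 3 of the 5 genes in SG-bgcn. With nothing added and no limit, 23 of 24 shares stayed within 1.5-fold, and that of A2bp1 in SG-bgcn became 1520%. With 0.1 added to both levels, 10 of 12 log2 folds of the share moved by less than 1.5-fold with the same sign. Those of how reversed, to -0.21 in SG-bam and -0.18 in SG-bgcn, since its share hardly differs and its SC extension level is low. An annotated 3′ UTR was touched by 10 entries and covered the larger part of 8, those of how lying mostly in introns. By extension level in place of share, 0 of the 3 nearest genes were the same for mei-P26, pum, A2bp1 and how. No paired analysis was possible because the tables hold group averages without library values. For the same reason leaving out replicates and other normalisations were not run, and scaling by length was not run because extension levels are already per base.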

Other observations

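The listed extension folds leave an empty stretch on the log2 scale, noticed after the values were seen. Among extensions higher in the mitotic group with both levels above 0, none of the 682 in SG had a log2 fold between 2.2 and 2.99. In SG-tut the empty stretch ran from 3.11 to 4.09 (460 extensions), in SG-bam from 3.32 to 4.07 (479) and in SG-bgcn from 3.36 to 4.11 (453). Away from the highest folds, the next widest gap between neighbouring folds was 0.08 to 0.13. Among the highest folds, where extensions are sparse, gaps wider than the stretch occur. In SG the highest fold was 9.025 (stg) and the next 8.17 (CG10463), and in SG-tut 11.16 (Lim1) and 9.78 (CG17839). Of the 12 entries of the regulators, 2 lie below the stretch, tut in SG at 1.33 and Stat92E in SG-bgcn at 2.85, and 10 lie above it. In SG 94 extensions lie below the stretch and 588 above it, with median SC extension levels of 0.438 and 0.0662 and median log2 folds of the gene of -0.41 and 0.89. Whether the stretch comes from the way entries were selected was not tested.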
